A study of Arabidopsis thaliana with 12 samples.

Results

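RNAseq of *A. thaliana* shoots treated with progesterone (PO) was set directly against RNAseq of shoots treated with testosterone (TO). The 4 PO libraries and the 4 TO libraries were compared, which are 8 of the 12 libraries of the series. The other 4 libraries came from mock-treated plants, given DMSO alone, and entered no test. PO plants received 10 μM progesterone and TO plants 10 μM testosterone for 1 h. Both steroids were applied in 0.12% DMSO, the solvent given alone to the mock plants. All plants were of the accession Col-0, with no mutation or transgene given in the labels. They grew on MS medium and were 7 days old when moved to a poor nutrient medium, where they had 2 days before the treatment (the growth protocol of the labels gives an age of 10 days instead). The paper calls the material both shoots and leaves, and the labels call it leaves. The 4 libraries of a group were described as biological replicates. How many plants made up 1 library is not given in the sources used here, and the p-values measure the spread between these libraries.

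Progesterone and testosterone share the same steroid ring system with a conjugated ketone, and they differ in the group at the far end of the molecule, which is an acetyl side chain in progesterone and a hydroxyl group in testosterone. Both have been found in plants, which have no nuclear steroid receptor of the animal type. Their own steroid hormones, the brassinosteroids (BRs), are sensed by the receptor kinase BRI1 at the plasma membrane. Foreign hydrophobic molecules are commonly oxidised by cytochromes P450, joined to glutathione or a sugar by glutathione transferases (GSTs) and UDP-glycosyltransferases (UGTs), and moved by ABC transporters. The 2 steroids formed the only pair of compounds in the comparison, at the same dose and time.

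No locus passed the test between the steroids. Of 38618 loci in the count table, 22697 had enough counts to be tested, and 0 of them (0%) differed at an adjusted p under 0.05 with edgeR's quasi-likelihood test and Benjamini-Hochberg adjustment, the smallest adjusted p being 0.56. Before adjustment, 868 loci (3.82% of those tested) were higher in PO and 1036 (4.56%) lower in PO at p under 0.05. Together these are 1904 loci (8.39%), where evenly spread p-values would give 1135. All 4 PO levels lay above all 4 TO levels at 434 loci (1.91%) and below them at 485 loci (2.14%), together 4.05% of those tested. DESeq2 on the same counts called 55 of 22686 loci (0.242%) at an adjusted p under 0.05, of which 25 were higher and 30 lower in PO. The loci named below therefore lean to one steroid and were not called by the main test.

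The number of leaning loci depended on single libraries. Without PO replicate 1, 1324 loci were higher and 1688 lower in PO at an unadjusted p under 0.05. Without TO replicate 4 they were 1322 higher and 1301 lower, and without TO replicate 2 they were 547 higher and 591 lower. Leaving out PO replicate 4 gave 578 higher and 736 lower. The numbers were 836 higher and 894 lower without PO replicate 2, and 653 and 736 without PO replicate 3. They were 856 and 977 without TO replicate 1, and 653 and 796 without TO replicate 3. Counts for a gene list with 1 library left out are given below and are to be read beside these numbers. No library left out brought any locus to an adjusted p under 0.05, with the smallest adjusted p between 0.109 and 0.929. On the first principal component (27.3% of the variance), PO replicate 1 lay at -13.96 among the TO libraries (-41.4 to -1.51), while the other PO libraries lay between 17.04 and 42.6.

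Total counts were 45185769 to 63445014 in PO libraries and 41036335 to 51856000 in TO libraries. Levels are given as CPM, counts divided by the library total in units of 1e6, after scaling with TMM factors, a correction for library composition. DMSO levels are given as background on a scale over all 12 libraries, which differed from that of the 8 libraries by at most 1.66%. The 8 leaf mesophyll markers, among them RBCS1A for a small subunit of Rubisco, were all tested and summed to 40131 to 46152 CPM in PO and 40192 to 44548 CPM in TO. The 8 root markers summed to 1.76 to 6.59 CPM in PO and 2.46 to 8.88 CPM in TO, and the 7 flower markers to 17.8 to 26.9 CPM in PO and 14.8 to 25.9 CPM in TO. The 5 seed markers summed to at most 0.254 CPM in PO, but to 2.68 and 6.06 CPM in TO replicates 2 and 3 (0.175 CPM in both other TO libraries). No marker of these lists was at 0 in all 8 libraries.

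The counts set narrow bounds on the difference between the steroids for most expressed loci. For each locus a 95% interval of the log2 fold change (logFC) of PO over TO was taken from the edgeR fit. Its median half-width was 0.29, which corresponds to a 1.23-fold difference. The interval lay within a 2-fold difference in either direction at 19186 loci (84.5%), within 1.5-fold at 14765 (65.1%) and within 4-fold at 22237 (98.0%). A test of equivalence, which adjusts for the number of loci, placed 19890 loci (87.6%) within 2-fold, 15283 within 1.5-fold and 22408 within 4-fold at an adjusted p under 0.05.

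How much could be excluded depended on the level of the locus. Among the 2983 tested loci at or below 1 CPM, the median half-width was 0.93 and 22.3% of intervals lay within 2-fold. From 1 to 2 CPM the share within 2-fold was 69.7% of 1612 loci, and from 2 to 5 CPM it was 87.7% of 2705 loci. From 10 to 50 CPM, where 8570 loci lay, the median half-width was 0.22, 98.1% of the intervals were within 2-fold and 89.8% within 1.5-fold. Above 100 CPM the half-width was 0.23, no narrower than at 10 to 50 CPM. A 2-fold difference was thus outside the interval for nearly every locus above 5 CPM, and for most loci under 5 CPM the interval reached past a 1.5-fold difference.

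**Figure D1:**
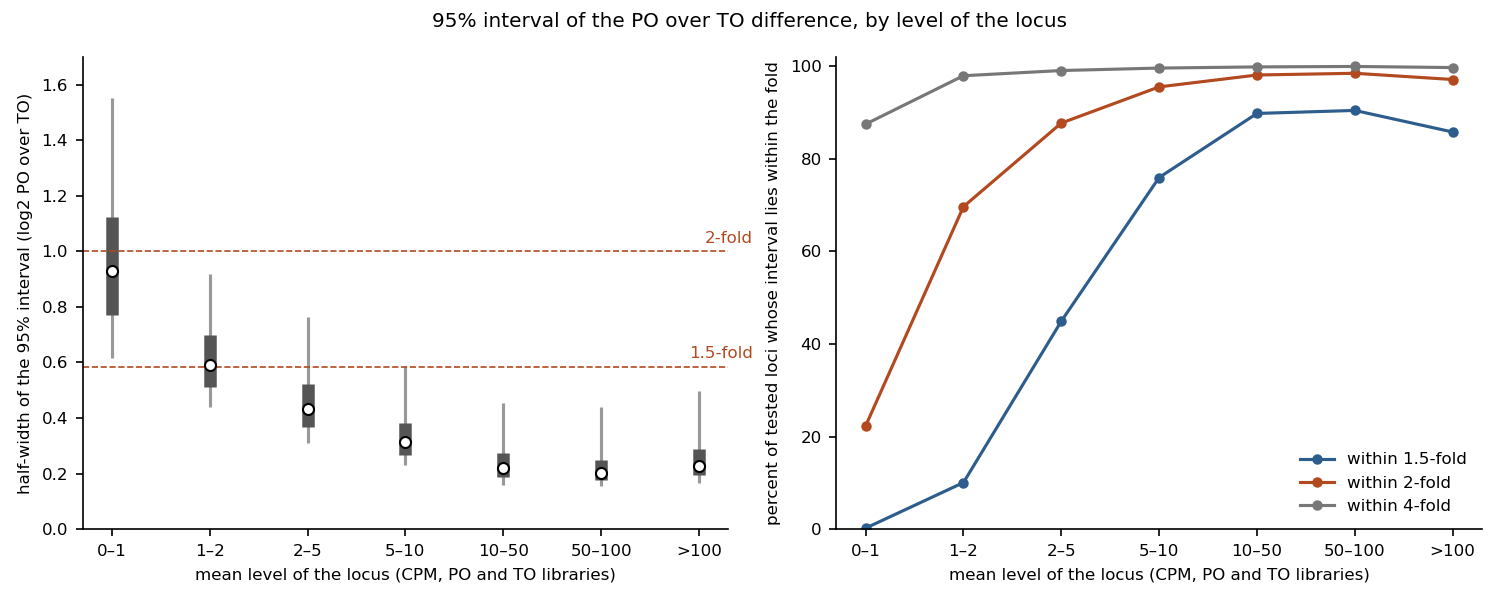
Left, half-width of the 95% interval of the log2 fold change of PO over TO against the mean level of the locus in CPM, with the median (circle), the middle 50% (thick bar) and the middle 90% (thin line) of loci in each class. Right, percent of tested loci whose interval lay within 1.5-fold, 2-fold and 4-fold. The median half-width was 0.93 at or below 1 CPM and 0.22 from 10 to 50 CPM.

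The detoxification genes CYP72A13, GSTU7, CYP81D11, ABCG34 and UGT73C1 had overlapping levels under both compounds. They stand in the study's table of loci changed by both steroids in these libraries, a choice that favours like levels in PO and TO. The study lists them as reduced by the steroids, while their PO and TO means lay above the DMSO means here. CYP72A13 (AT3G14660), a cytochrome P450, had 377, 419, 532 and 516 CPM in PO libraries, against 418, 593, 712 and 480 CPM in TO libraries and a DMSO mean of 159 ± 20.4 CPM (SD, n = 4). Its logFC of PO over TO was -0.26 with an interval of -0.64 to 0.12, so a 2-fold difference in either direction lay outside. GSTU7 (AT2G29420), a tau class GST, had 134, 138, 193 and 187 CPM in PO, against 165, 221, 216 and 131 CPM in TO and 49.2 ± 6.55 CPM in DMSO. The 2 steroid groups overlapped (logFC -0.17, interval -0.57 to 0.23).

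CYP81D11 (AT3G28740), another P450, had 50.5, 65.8, 76.4 and 51.2 CPM in PO, against 50.2, 96.7, 84.2 and 37.4 CPM in TO and 8.44 ± 3.22 CPM in DMSO. Here the TO libraries enclosed the whole PO range, and the interval was -0.72 to 0.45. ABCG34 (AT2G36380), an ABC transporter also known as PDR6, had 95.3, 103, 132 and 107 CPM in PO, against 78.1, 94.9, 112 and 99.4 CPM in TO and 43.0 ± 5.93 CPM in DMSO (logFC 0.19, interval -0.10 to 0.47). The glucosyltransferase gene UGT73C1 (AT2G36750) had the least difference of these, with 2.42, 3.44, 4.96 and 3.84 CPM in PO, against 2.98, 3.73, 5.79 and 2.26 CPM in TO and 0.449 ± 0.164 CPM in DMSO. Its interval of -0.65 to 0.65 reached a 1.57-fold difference in either direction.

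UGT73B2 (AT4G34135), UGT73B3 and DOGT1 (AT2G36800), a glucosyltransferase that acts on the fungal toxin deoxynivalenol and on BRs, had logFC values of 0.09, 0.11 and 0.25, and all 3 intervals lay within 2-fold. So did those of UGT75B1 (-0.13) and of AER (AT5G16970), an alkenal reductase (0.12). These loci are in the study's table as well. Reads of DOGT1 and AER could come in part from close relatives, since 6.76% and 11.7% of their 50-base stretches occur elsewhere in the genome. GSTU7 and UGT75B1 share 559 and 2136 exon bases with an antisense locus.

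The study's table of genes changed by the steroids gave a list of 68 loci, chosen on these same libraries against DMSO. Each is listed there with changes in the same direction under both steroids. Loci with like levels in PO and TO were therefore favoured by the choice. Of these, 54 were tested between the steroids. The interval held 0 at 51 of them and lay within 2-fold at 27 and within 4-fold at 51. Their median half-width was 0.75, wider than the 0.29 over all tested loci. The median logFC was -0.08, against -0.01 over all loci. The 32 loci whose PO and TO means both lay above the DMSO mean had a median of -0.12 (11 higher in PO), and the 22 with both below it had a median of -0.01 (11 higher in PO). The study lists these 32 as reduced and these 22 as enhanced by the steroids, opposite to the direction of the means here. The reason for this was not tested. The narrowest interval belonged to ABCG34 (half-width 0.28), followed by GSTU8 (logFC -0.12, interval -0.44 to 0.21) and CSLE1 (AT1G55850), a cellulose synthase-like gene (-0.05, interval -0.40 to 0.31).

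The widest intervals were those of low and uneven loci. TPS04 (AT1G61120), a terpene synthase, had 1.95, 1.2, 0.181 and 0.555 CPM in PO, against 0.351, 0, 0.146 and 3.74 CPM in TO. With 1 high TO library and 1 at 0, the interval ran from -2.56 to 2.28. The intervals of PCK2 (-1.65 to 1.96) and NRT2.5 (-1.99 to 0.98) also reached past a 2-fold difference.

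Only 3 of the 54 loci (5.56%) had an unadjusted p under 0.05, all lower in PO, against 4.56% of all tested loci. WRKY31 (AT4G22070), a transcription factor, had 0.326, 0.806, 0.330 and 0.601 CPM in PO, against 0.955, 1.46, 1.07 and 1.01 CPM in TO and 0.198 ± 0.0745 CPM in DMSO, without overlap (logFC -1.12, interval -1.88 to -0.35). ABCB11 (AT1G02520), a P-glycoprotein type transporter, had 2.12, 2.26, 1.81 and 2.104 CPM in PO, against 2.26, 3.79, 3.36 and 2.43 CPM in TO and a DMSO mean of 0.942 CPM (logFC -0.51, interval -0.96 to -0.07). DOT3 (AT5G10250), of the NPH3 family, had 0.773, 0.521, 0.594 and 0.694 CPM in PO, against 1.13, 1.40, 1.12 and 0.604 CPM in TO and 2.14 ± 0.562 CPM in DMSO (logFC -0.72, interval -1.40 to -0.05). MYB15 (AT3G23250), a transcription factor gene of cold and defence responses, had means below the DMSO mean of 18.4 CPM in both groups and a logFC of 0.41 (interval -0.35 to 1.16). Outside the list, BAG6 (AT2G46240), a co-chaperone gene, had 60.7, 32.4, 44.2 and 41.4 CPM in PO, against 34.8, 31.9, 29.9 and 24.2 CPM in TO and 83.1 ± 26.6 CPM in DMSO (logFC 0.56, interval 0.18 to 0.95). None of these passed after adjustment (adjusted p 0.56 to 0.76).

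**Figure D2:**
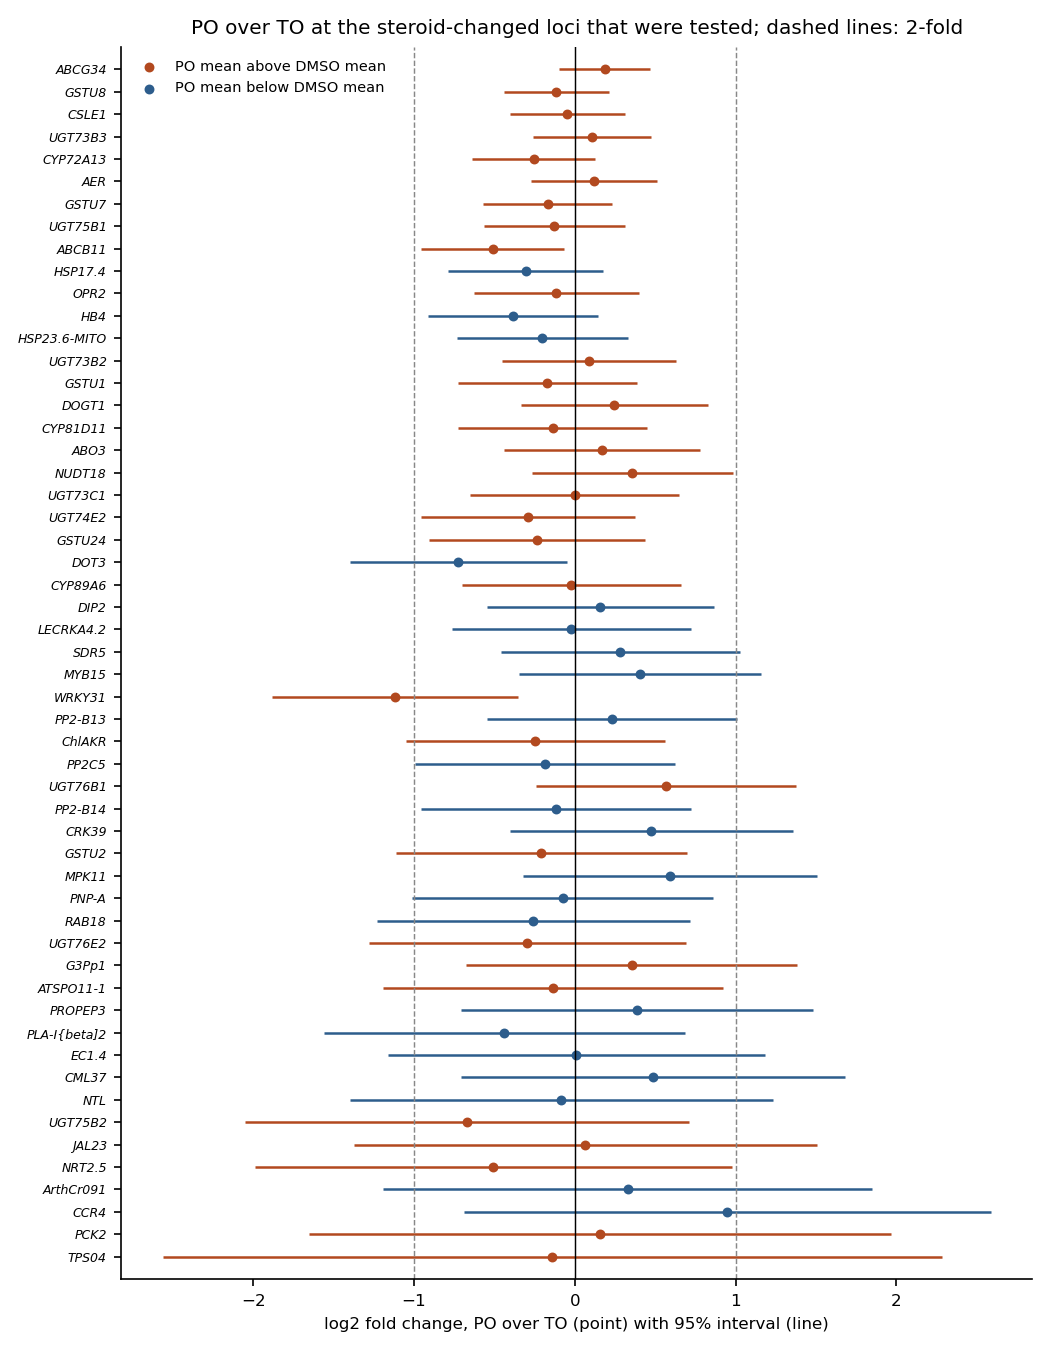
Log2 fold change of PO over TO (point) and its 95% interval (line) at the 54 tested loci of the study's table, ordered by the width of the interval. Red loci had a PO mean above the DMSO mean and blue loci below it, and dashed lines mark a 2-fold difference. The interval held 0 at 51 loci and lay within 2-fold at 27.

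Of the detoxification families, the GSTs and the cytochromes P450 leaned to TO. Of 36 tested tau and phi GSTs, 29 were lower in PO, with a median logFC of -0.16. At an unadjusted p under 0.05 were 4 of the lower ones (11.1% of those tested) and 0 of the 7 higher ones. The shares of all tested loci were 4.56% lower and 3.82% higher. Without TO replicate 1, 21 of the 36 were lower, and 2 loci were at p under 0.05 in each direction. GSTU25 (AT1G17180) averaged 0.587 ± 0.405 CPM in PO, against 1.89 ± 0.853 CPM in TO and a DMSO mean of 0.174 CPM, with overlap through PO replicate 4 and TO replicate 4 (logFC -1.71, interval -2.77 to -0.64). GSTF12 (AT5G17220), which serves the deposition of anthocyanins and tannins, was lower in every PO library than in any TO library (logFC -1.20). It shares 108 bases with an antisense locus.

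Of 148 tested cytochromes P450, 98 were lower in PO, 12 (8.11%) at an unadjusted p under 0.05, against 1 of the 50 higher ones, with a median logFC of -0.16. Without PO replicate 1, 22 of 152 were at p under 0.05 lower in PO and 4 higher. Over all loci, 1688 were lower and 1324 higher without that library, against 1036 and 868 with all 8. Without PO replicate 3, 10 of 152 were lower and 4 higher at that p, with a median of -0.09. The median was -0.08 without TO replicate 2. Without PO replicate 2, TO replicate 1 or TO replicate 4, 5 were higher at that p. CYP710A1 (AT2G34500), which makes stigmasterol from sitosterol, had 1.24, 1.90, 1.04 and 1.34 CPM in PO, against 2.14, 2.12, 2.68 and 3.10 CPM in TO, without overlap (logFC -0.86, interval -1.37 to -0.34). CYP72A14 (AT3G14680), a neighbour of CYP72A13 on chromosome 3, had a logFC of -0.91 (interval -1.47 to -0.35). Of 51 tested UGTs, 4 (7.84%) were lower and 0 higher in PO at p under 0.05 with a median of -0.05, beside 4.56% lower among all loci, and 42 intervals lay within 2-fold. Without PO replicate 1, 3 UGTs were lower and 6 higher, and without TO replicate 2 none was at that p. Of 98 tested ABC transporters, 6 (6.12%) were lower and 4 (4.08%) higher with a median of -0.05, beside 3.82% higher among all loci. Without PO replicate 1, 17 ABC transporters were lower at p under 0.05, in the fit where the number over all loci also rose, to 1688. Of the 6 lower ones, ABCC2 (AT2G34660), a vacuolar transporter of glutathione conjugates, had 39.8, 40.0, 48.7 and 40.7 CPM in PO, against 41.9, 66.4, 66.6 and 53.5 CPM in TO and 25.9 ± 5.57 CPM in DMSO (logFC -0.43).

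Among single loci that leaned to TO, MLP165 (AT1G35260) had the smallest p. It lies at chr1:12936849-12937787 on the minus strand (TAIR10.1). It encodes a major latex protein-like protein, of a family whose fold can hold small hydrophobic molecules. It had 1.57, 1.34, 0.659 and 0.717 CPM in PO, against 2.49, 4.35, 3.23 and 2.94 CPM in TO and 1.03 ± 0.234 CPM in DMSO. The PO mean thus lay near the DMSO mean, and every PO library below every TO library (logFC -1.60, interval -2.27 to -0.92, adjusted p = 0.56 with edgeR and 0.0044 with DESeq2). All 8 tested major latex protein genes were lower in PO, with a median logFC of -0.63. Of these, 3 (37.5%, against 4.56% of all loci) had an unadjusted p under 0.05. The others were MLP28 (logFC -0.37, without overlap) and MLP423 (-0.30). Without PO replicate 3, which was lowest in this family, or without TO replicate 1, 1 of the 8 had p under 0.05.

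GLTP3 (AT3G21260), of the glycolipid transfer protein family, had 9.58, 7.68, 8.42 and 9.76 CPM in PO, against 13.1, 20.5, 17.2 and 12.0 CPM in TO and 8.74 ± 1.46 CPM in DMSO (logFC -0.83, DESeq2 adjusted p = 0.010). Again PO was near DMSO and TO above it. HAB1 (AT1G72770), a protein phosphatase that restrains abscisic acid signalling, had 12.2, 12.4, 11.4 and 12.1 CPM in PO, against 17.3, 22.5, 19.6 and 13.9 CPM in TO and 14.8 ± 2.74 CPM in DMSO (logFC -0.61). SRS6 (AT3G54430), a transcription factor of the SHI family, had a logFC of -0.62 without overlap. It shares 1518 exon bases with the antisense gene EP3 (AT3G54420), a chitinase (logFC -0.62), so the counting may not tell these apart.

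AT3G15720, a pectin lyase-like gene, was at 0.856 to 1.47 CPM in PO, against 2.07 to 2.51 CPM in TO and 2.82 ± 0.393 CPM in DMSO, so here TO was nearer to DMSO (logFC -0.98). AT1G59740, a major facilitator family transporter, had 3.72 to 7.00 CPM in PO, against 8.07 to 13.2 CPM in TO (logFC -0.97). IAMT1 (AT5G55250), which methylates the auxin indole-3-acetic acid, had 4.86, 3.30, 2.93 and 3.01 CPM in PO, against 7.69, 8.62, 7.30 and 4.60 CPM in TO (interval of the logFC -1.49 to -0.51). Its groups overlapped through PO replicate 1 and TO replicate 4.

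Genes known mainly from roots were among the low loci that leaned to TO. MYB93 (AT1G34670), a regulator of lateral root development, had 0.0462 to 0.158 CPM in PO, against 0.240 to 0.545 CPM in TO (logFC -2.06, interval -3.07 to -1.05). THAS1 (AT5G48010), which makes the root triterpene thalianol, had 0.326, 0.221, 0.0330 and 0.0463 CPM in PO, against 0.545, 0.942, 0.584 and 1.60 CPM in TO (logFC -2.53, DESeq2 adjusted p = 0.039). THAS1 had 2 counts in each of PO replicates 3 and 4, and MYB93 had 2 counts in PO replicate 4, all under a floor of 3 counts. PPC3 (AT3G14940), a phosphoenolpyruvate carboxylase, had 0.758 to 2.32 CPM in PO, against 3.00 to 6.44 CPM in TO (logFC -1.44). Of the 8 root markers, 4 were tested and 3 were lower in PO, none at an unadjusted p under 0.05, and none with an interval within 2-fold. Their median logFC was -0.16, but without TO replicate 3 it was 0.32, with 3 of 4 tested ones higher in PO. TO replicate 3 had the highest sum of root markers and PO replicate 3 the lowest, and their part in the levels of MYB93, THAS1 and PPC3 was not tested.

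In the other direction, the smallest p of all loci was that of AT5G07820, a calmodulin-binding protein-like gene. It lies at chr5:2498550-2501253 on the minus strand (TAIR10.1). It had 18.1, 21.2, 21.7 and 24.8 CPM in PO, against 13.7, 15.5, 14.5 and 13.4 CPM in TO and 17.8 ± 3.46 CPM in DMSO (logFC 0.59, interval 0.36 to 0.82, adjusted p = 0.56 with edgeR and 0.0063 with DESeq2). AT5G50915, a basic helix-loop-helix transcription factor gene, had 4.21, 13.2, 6.17 and 5.90 CPM in PO, against 0.740, 0.761, 1.17 and 2.57 CPM in TO (logFC 2.49, interval 1.49 to 3.49). Every PO library lay above every TO library, and the DMSO level was uneven (3.45 ± 2.90 CPM).

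GASA1 (AT1G75750), a gibberellin-regulated gene for a small cysteine-rich peptide, had 2128, 2945, 2351 and 2356 CPM in PO, against 1251, 1495, 1374 and 1907 CPM in TO and 1715 ± 532 CPM in DMSO (logFC 0.70, DESeq2 adjusted p = 0.0081). COBL2 (AT3G29810), which encodes a COBRA-like protein of the cell surface, had 45.8, 43.1, 45.2 and 54.6 CPM in PO, against 33.7, 32.9, 32.2 and 38.9 CPM in TO and 35.7 ± 4.10 CPM in DMSO (logFC 0.45). The groups did not overlap at either gene. SRF6 and SRF7 (AT3G14350), receptor-like kinases of the STRUBBELIG family, were higher in every PO library (logFC 0.40 and 0.34). They share 320 and 381 bases with antisense loci.

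Genes for ion transport also stood among those leaning to PO. The anion channel gene SLAH3 (AT5G24030) had 57.1, 59.3, 70.6 and 69.4 CPM in PO, against 51.6, 32.4, 41.2 and 43.8 CPM in TO and 60.8 ± 12.5 CPM in DMSO (logFC 0.60). Its relative SLAH2 (AT4G27970) had 6.13, 5.91, 6.83 and 7.12 CPM in PO, against 4.58, 3.01, 4.43 and 4.46 CPM in TO (logFC 0.66). CAX1 (AT2G38170), a calcium/proton exchanger of the vacuole, had 53.4, 59.2, 34.6 and 46.1 CPM in PO, against 21.5, 25.3, 28.4 and 35.7 CPM in TO (logFC 0.80, DESeq2 adjusted p = 0.023), with overlap through PO replicate 3 and TO replicate 4. ASN2 (AT5G65010), an asparagine synthetase, and HSFA3 (AT5G03720), a heat stress transcription factor, had logFC values of 0.51 and 0.62 without overlap. Of 423 transport genes, 20 (4.73%) were lower and 16 (3.78%) higher in PO at p under 0.05, near the shares of all loci, with a median of -0.02. These numbers were 56 and 22 of 426 without PO replicate 1, where those of all loci also rose, to 1688 and 1324.

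**Figure D3:**
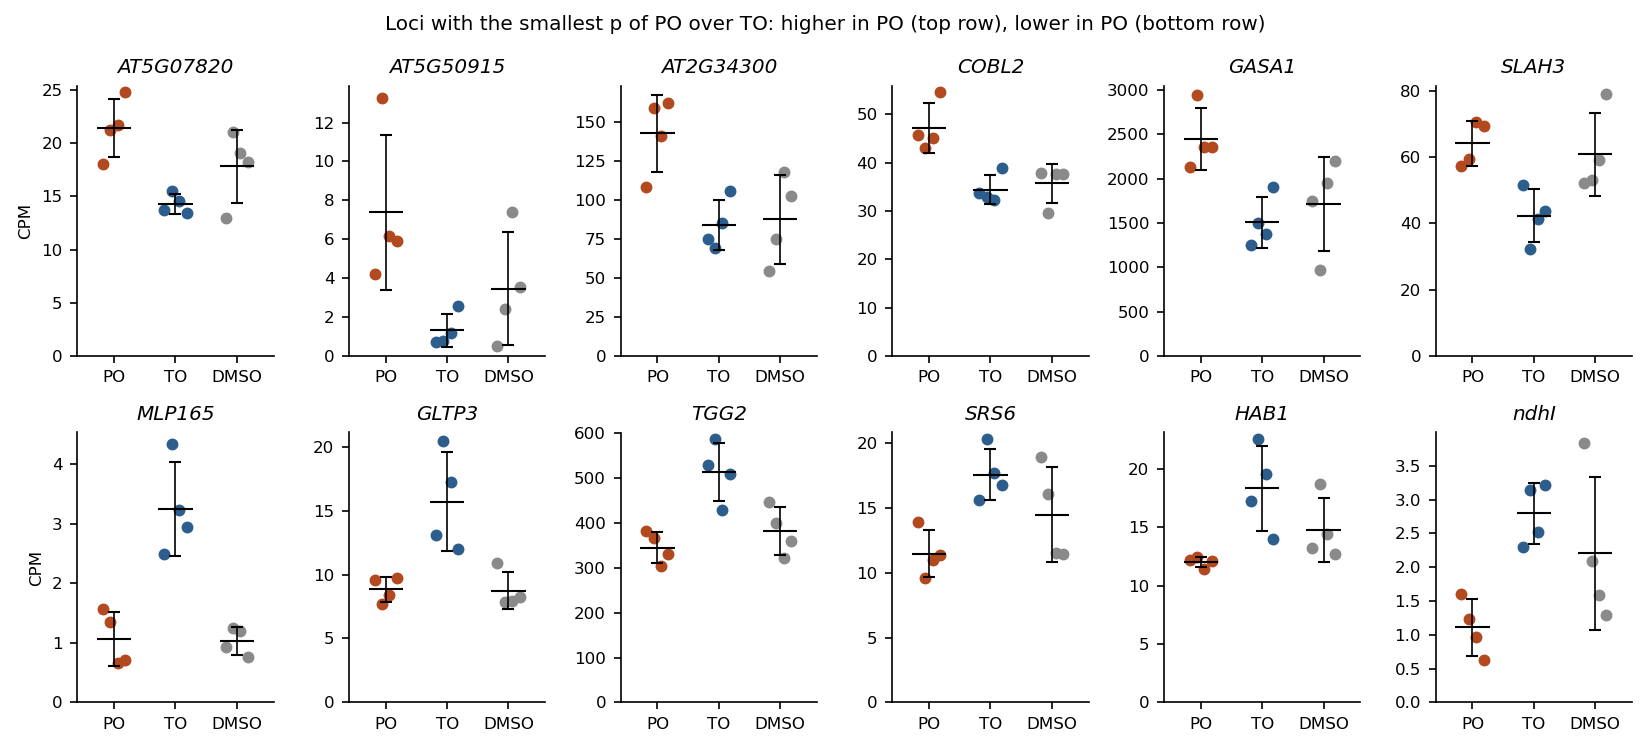
Levels in CPM of 6 loci that leaned to PO (top) and 6 that leaned to TO (bottom), with 1 point per library, the mean as a line and the SD as a bar (n = 4 each). The DMSO libraries are shown as background on the scale of all 12 libraries. PO and TO points do not overlap at any of the 12 loci.

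Loci encoded in the chloroplast leaned to TO. Per the paper, mRNA was enriched with oligo(dT) beads, and the part of this step in the counts of organelle and ribosomal RNA loci was not tested. Of 115 tested, 95 were lower in PO, with a median logFC of -0.33. At an unadjusted p under 0.05 were 37 of the lower ones (32.2% of those tested) and 0 of the 20 higher ones. The shares of all tested loci were 4.56% lower and 3.82% higher. Every one of the 15 genes for photosystem II subunits and of the 6 genes each for the ATP synthase and for the cytochrome complex (pet genes) was lower in PO, with medians of -0.39, -0.73 and -0.41. Of the 11 genes for proteins of the large ribosomal subunit, 5 were lower (median 0.04). This split by gene class was made after the values were seen. The intervals lay within 2-fold at 56 of the 115 loci. Without TO replicate 1, 57 of 115 were lower at p under 0.05, and without TO replicate 2 the numbers were 32 lower and 5 higher. Some loci of the inverted repeat, such as rrn23S, are in this list as 2 copies.

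The gene psbD (ArthCp017), for the D2 protein of photosystem II, had 38.1, 46.5, 35.9 and 34.0 CPM in PO, against 50.4, 52.7, 70.6 and 76.2 CPM in TO and 55.6 ± 17.5 CPM in DMSO (logFC -0.69). The groups did not overlap. ndhI (ArthCp078), for a subunit of the NADH dehydrogenase-like complex, had 1.61, 1.23, 0.973 and 0.624 CPM in PO, against 2.30, 3.15, 2.53 and 3.21 CPM in TO (logFC -1.33, DESeq2 adjusted p = 0.0081). rps14 (ArthCp020), for a protein of the small ribosomal subunit, had 7.43, 8.45, 5.57 and 4.49 CPM in PO, against 12.1, 11.8, 12.6 and 10.3 CPM in TO (logFC -0.85). psbZ (logFC -0.75), matK (ArthCp003), a maturase of introns (-1.26), and atpE (-0.60) were lower as well. The DMSO means of psbD, ndhI and rps14 lay above the PO means, and their DMSO spread was wide.

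Chloroplast ribosomal RNA set much of the count share. Chloroplast-encoded loci took 0.770, 0.808, 0.678 and 0.579% of all counts in PO, against 0.746, 1.298, 1.33 and 1.59% in TO and 0.850 to 1.25% in DMSO. The mean difference, -0.533 percentage points, did not pass an exact permutation test over the 8 samples (two-sided p = 0.086, where 0.029 is the smallest possible). TO replicate 1 lay within the PO range, and without it the difference was -0.698 (exact permutation p = 0.057). The rrn23S locus, 1 of 2 copies in the inverted repeat whose reads cannot be told apart, had 825, 633, 445 and 426 CPM in PO, against 206, 1920, 2368 and 4333 CPM in TO. Without ribosomal RNA loci, chloroplast-encoded loci took 0.536 ± 0.0631% in PO and 0.610 ± 0.126% in TO (SD, n = 4 each; exact permutation p = 0.37).

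Mitochondrion-encoded loci showed the same direction. Of 92 tested, 73 were lower in PO, with a median of -0.37. At an unadjusted p under 0.05 were 18 of the lower ones (19.6% of those tested) and 0 of the 19 higher ones. Over all tested loci, 4.56% were lower and 3.82% higher at that p. Without TO replicate 2 or without TO replicate 3, 10 of 96 were lower at p under 0.05, and without PO replicate 1 or 3 the number was 12 of 97. They took 0.0288 ± 0.00214% of the counts in PO, against 0.0403 ± 0.0116% in TO (exact permutation p = 0.14). rps3 (DA397_mgp40), for a ribosomal protein, had 3.48, 3.93, 3.66 and 3.38 CPM in PO, against 4.09, 6.45, 6.59 and 6.78 CPM in TO (logFC -0.72, DESeq2 adjusted p = 0.046). ccmFN1 (DA397_mgp10), for cytochrome c assembly, and nad7 (DA397_mgp19), for a subunit of complex I, had logFC values of -0.84 and -0.61, but 95.5% and 94.7% of their 50-base stretches also occur elsewhere in the genome. Of 321 nuclear genes for ribosomal proteins, 4 (1.25%) were lower and 1 (0.312%) higher in PO at p under 0.05. The shares of all loci were 4.56% and 3.82%. The median over the ribosomal protein genes was -0.03, and 0.02 without PO replicate 4.

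**Figure D4:**
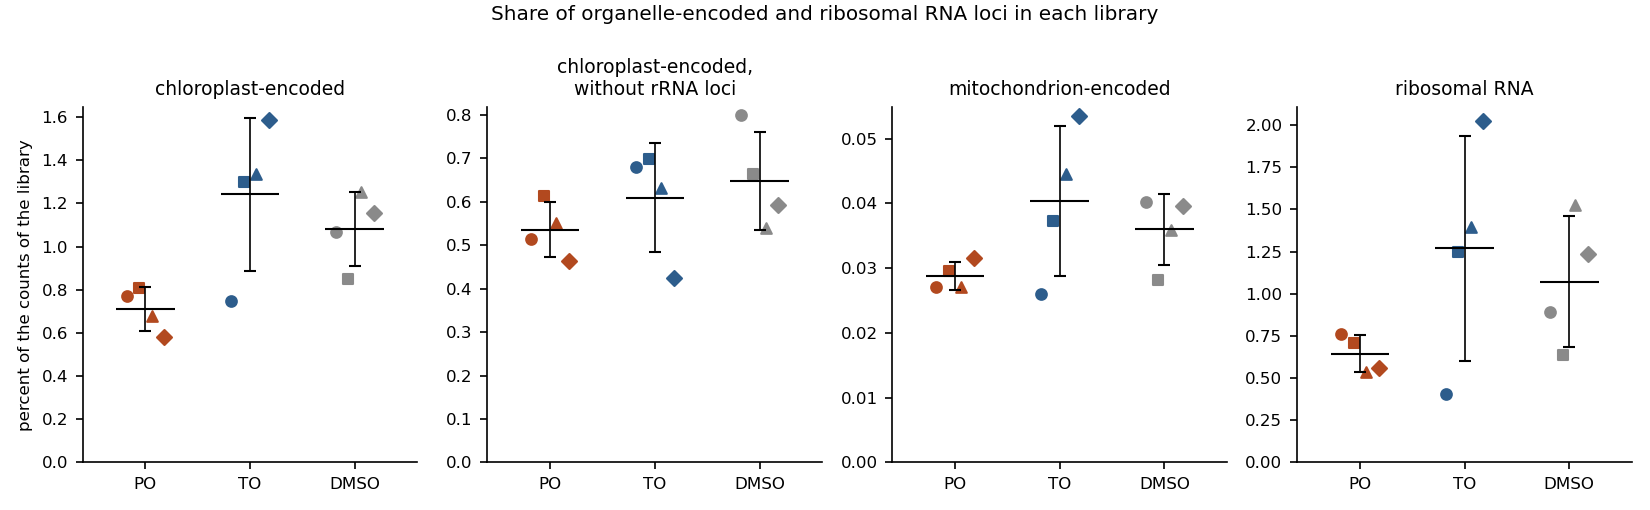
Percent of the counts of each library that fell on chloroplast-encoded loci, on the same without ribosomal RNA loci, on mitochondrion-encoded loci and on ribosomal RNA loci, for PO, TO and DMSO. Points are libraries (circle, square, triangle and diamond for replicates 1 to 4), lines the mean and bars the SD (n = 4 each). TO replicate 1 lay within the PO range for chloroplast-encoded loci and below it for mitochondrion-encoded and ribosomal RNA loci.

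Auxin-related growth genes leaned to TO. The SAUR genes are early targets of auxin, and those of the SAUR19 group promote cell expansion. Of 16 tested, 14 were lower in PO, with a median logFC of -0.41. At an unadjusted p under 0.05, 6 (37.5%, against 4.56% of all loci) were lower and 0 (against 3.82%) were higher. The list was matched by symbol, so SAUR genes without such a symbol are missing from it, and 37.5% is not a rate of the whole family. Of the 6, 5 lie close together on chromosome 5. Their promoters are shown because these neighbours leaned together. The 250 bases before the annotated start of 3 of them, read along the strand of the gene in TAIR10.1 (RefSeq), are given here, with the auxin response element TGTCTC in capitals where it occurs on either strand (as GAGACA on the strand shown). SAUR20 was read at chr5:5966786-5967035 and SAUR22 at chr5:5975088-5975337, both on the minus strand, and SAUR23 at chr5:5975530-5975779 on the plus strand.
SAUR20: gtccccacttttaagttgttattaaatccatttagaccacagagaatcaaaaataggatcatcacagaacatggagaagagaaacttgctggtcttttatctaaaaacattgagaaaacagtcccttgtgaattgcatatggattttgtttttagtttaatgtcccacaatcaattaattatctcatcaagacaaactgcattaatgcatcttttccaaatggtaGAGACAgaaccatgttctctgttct
SAUR22: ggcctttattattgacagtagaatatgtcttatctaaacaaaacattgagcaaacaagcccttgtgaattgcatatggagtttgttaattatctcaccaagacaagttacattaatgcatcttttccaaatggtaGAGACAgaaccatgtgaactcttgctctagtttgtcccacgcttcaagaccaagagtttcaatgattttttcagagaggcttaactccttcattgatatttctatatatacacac
SAUR23: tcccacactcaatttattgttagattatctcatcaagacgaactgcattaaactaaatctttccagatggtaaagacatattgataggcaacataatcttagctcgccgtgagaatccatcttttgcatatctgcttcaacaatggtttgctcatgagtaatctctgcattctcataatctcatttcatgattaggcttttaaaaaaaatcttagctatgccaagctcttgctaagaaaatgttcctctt
The element was found once in SAUR20 and once in SAUR22, and not in the windows of SAUR19, SAUR23 and SAUR24. It occurred in 10.7% of the 20296 promoters of tested nuclear protein-coding genes. The G-box CACGTG was in none of the 5 windows and in 7.17% of all promoters.

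SAUR20 had 9.48, 5.43, 6.17 and 6.36 CPM in PO, against 11.8, 13.3, 10.2 and 7.26 CPM in TO and 12.0 ± 3.21 CPM in DMSO (logFC -0.63, interval -1.10 to -0.17). SAUR22 had 7.26, 4.01, 5.31 and 5.06 CPM in PO, against 8.90, 12.5, 7.42 and 5.71 CPM in TO (logFC -0.68). SAUR23 had 6.61, 2.86, 3.69 and 4.39 CPM in PO, against 8.14, 11.0, 7.03 and 4.79 CPM in TO (logFC -0.82). At all 3, PO replicate 1 was the highest PO library and TO replicate 4 the lowest TO library, and the groups overlapped through them. SAUR19 and SAUR24 had logFC values of -0.62 and -0.53, with 18.5% and 7.11% of their 50-base stretches found elsewhere, and SAUR9 (AT4G36110), outside the cluster, -0.67 without overlap. Without PO replicate 1, 10 of the 16 SAUR genes were lower at p under 0.05 and 1 was higher. Without TO replicate 2 or PO replicate 2 the number lower was 3 and 4. Over all loci, the number lower was 1688, 591 and 894 without these libraries in turn, against 1036 with all 8.

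All 14 tested alpha-expansins, proteins that loosen the cell wall, were lower in PO, with a median of -0.24. Of these, 2 (14.3%, against 4.56% of all loci) had an unadjusted p under 0.05 (1 to 4 with any 1 library left out). EXPA4 (AT2G39700) had 14.8, 12.7, 12.7 and 10.2 CPM in PO, against 22.6, 24.1, 14.6 and 14.0 CPM in TO (logFC -0.58), and EXPA6 (AT2G28950) had a logFC of -0.44. With any 1 library left out, the tested expansins included 1 to 4 that were higher in PO. Of 21 tested Aux/IAA genes, repressors of the auxin response, 17 were lower in PO. At p under 0.05 was 1 of them, IAA29 (logFC -0.51), which is 4.76%, near the 4.56% lower among all loci. Without PO replicate 1, 7 were lower at that p, without TO replicate 4 it was 5, and without TO replicate 2 or any 1 of the other PO libraries it was 0. The number lower over all loci was 1688 without PO replicate 1, 1301 without TO replicate 4 and 591 without TO replicate 2. IAA19 (AT3G15540) had 27.6, 9.46, 12.2 and 12.8 CPM in PO, against 27.5, 31.9, 17.9 and 19.4 CPM in TO (logFC -0.64, interval -1.32 to 0.04).

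The XTH genes, whose enzymes cut and rejoin xyloglucan in the wall, leaned to PO. Of 20 tested, 15 were higher in PO, with a median of 0.25. At an unadjusted p under 0.05, 5 (25%, against 3.82% of all loci) were higher and none (against 4.56%) was lower. XTH18 (AT4G30280) had 119, 141, 156 and 165 CPM in PO, against 102, 41.5, 61.9 and 117 CPM in TO and 158 ± 72.4 CPM in DMSO, without overlap of PO and TO (logFC 0.85). XTH24 (logFC 0.49) and XTH15 (0.44) were higher as well, with overlap, and XTH15 shares 382 bases with an antisense locus. At p under 0.05, 1 of 21 was higher without TO replicate 3, 2 of 20 without PO replicate 4 and 3 of 21 without PO replicate 2.

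Genes that respond within minutes to touch and stress leaned to PO. Of 26 tested, 21 were higher in PO, with a median of 0.36. At an unadjusted p under 0.05, 8 (30.8%, against 3.82% of all loci) were higher and 1 (3.85%, against 4.56%) was lower. TCH4 (AT5G57560), a touch-induced XTH, had 233, 373, 194 and 315 CPM in PO, against 135, 107, 110 and 216 CPM in TO and 218 ± 43.8 CPM in DMSO (logFC 0.97, interval 0.42 to 1.53). SZF1 (AT3G55980), a zinc finger gene of salt and defence responses, had 47.8, 53.5, 50.3 and 48.7 CPM in PO, against 33.5, 24.5, 37.4 and 44.99 CPM in TO and 57.2 ± 21.5 CPM in DMSO, without overlap (logFC 0.51). TCH3 (AT2G41100), a calmodulin-like gene, had 629, 759, 642 and 694 CPM in PO, against 630, 280, 404 and 508 CPM in TO (logFC 0.58), and shares 272 bases with an antisense locus.

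The PO levels of SZF1 and TCH3 were near the DMSO means, and the TO levels were below them. DMSO replicate 2 was the highest DMSO library at both, with 87.3 CPM at SZF1 and 1262 CPM at TCH3. The other DMSO libraries had 36.4 to 53.1 CPM at SZF1 and 511 to 630 CPM at TCH3, ranges that some TO libraries reached. TO replicate 2 was the lowest library over this list, at -0.63 on the log2 scale against the mean of the 8 libraries. Without it, 4 of the 26 genes were higher at p under 0.05, and without TO replicate 3 it was 4 of 27. CML38 (AT1G76650), ERF104 (AT5G61600), ACS6 (AT4G11280), for ethylene synthesis, and WRKY18 (AT4G31800) had logFC values of 0.85, 0.47, 0.39 and 0.44. The exception was DREB1A (AT4G25480), a cold-response regulator at under 1 CPM in all 8 libraries (logFC -1.28).

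The BIP genes, HSP70 chaperones of the endoplasmic reticulum, were higher in PO. BIP3 (AT1G09080) had 5.21, 11.1, 18.6 and 7.19 CPM in PO, against 3.72, 2.16, 4.74 and 7.87 CPM in TO (logFC 1.19, interval 0.25 to 2.13). BIP2 and BIP1 (AT5G28540) had logFC values of 0.57 and 0.41. Their sequences are close, with 24.1% and 23.5% of 50-base stretches found elsewhere, so these values are not independent. PO replicate 3 was the highest library at all 3 genes. Over all 67 tested heat shock protein genes, 6 (8.96%, against 3.82% of all loci) were higher in PO at p under 0.05. At that p, 1 (1.49%, against 4.56%) was lower, and the median was 0.06. Without PO replicate 3 none was higher at that p, while without PO replicate 2 it was 15, and without PO replicate 4 or TO replicate 2 it was 2.

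Defence hormone genes at an unadjusted p under 0.05 lay in both directions. Among all tested loci, 3.82% were higher and 4.56% lower in PO at that p. Of 29 jasmonate genes, 20 were higher in PO, with a median of 0.11. At that p, 1 (3.45%) was higher and 2 (6.90%) were lower. Without TO replicate 4, 23 were higher, 5 of them at that p, with a median of 0.27. The lower ones were VSP1 and VSP2 (AT5G24770), storage proteins induced by jasmonate. VSP1 had 1.34, 1.2, 0.824 and 0.555 CPM in PO, against 3.04, 1.68, 1.80 and 1.75 CPM in TO (logFC -1.07). CYP94C1 (AT2G27690), which oxidises the active jasmonate conjugate, was the higher one (logFC 0.77). Of 13 salicylic acid genes, 9 were higher in PO, with a median of 0.13. CBP60G (logFC 0.63) and EDS1 (0.32) were higher at that p (15.4% of the list). PR5 was lower in PO at that p (7.69%, logFC -0.82, without overlap). Without TO replicate 1, 4 salicylic acid genes were higher and 1 lower at that p. Of 21 clock genes, 1 (4.76%) was higher at that p, PRR3 (logFC 0.32, without overlap), and 1 (4.76%) lower, ELF4 (-0.26). For 20 of them the interval lay within 2-fold.

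Myrosinases, which release toxic products from glucosinolates, leaned to TO. TGG2 (AT5G25980) had 381, 367, 303 and 330 CPM in PO, against 528, 587, 429 and 509 CPM in TO and 382 ± 53.5 CPM in DMSO, so PO lay near the DMSO mean and every TO library above all PO libraries (logFC -0.57, interval -0.83 to -0.32, DESeq2 adjusted p = 0.0071). TGG1 (AT5G26000), the other leaf myrosinase, had 1441, 914, 731 and 1037 CPM in PO, against 1707, 1403, 1091 and 1295 CPM in TO (logFC -0.41, interval -0.86 to 0.03). Of 14 tested myrosinases and partners, 11 were lower in PO, with a median of -0.38. At an unadjusted p under 0.05, 6 (42.9%, against 4.56% of all loci) were lower and 1 (7.14%, against 3.82%) was higher. The partners MBP1 and MBP2 (AT1G52030), myrosinase-binding proteins, had logFC values of -0.86 and -0.85, and NSP3 (AT3G16390), a nitrile specifier, -1.40. The beta-glucosidase genes PYK10 and BGLU18 (AT1G52400), whose products reside in endoplasmic reticulum bodies, had -0.56 and -0.40. PEN2 (AT2G44490), an atypical myrosinase of induced defence, was higher in PO (logFC 0.29). Of 32 glucosinolate biosynthesis genes, 1 (3.1%) was higher and 1 (3.1%) lower at that p, beside 3.82% and 4.56% of all loci. The median was -0.04. The numbers were 0 higher and 9 lower of 33 without PO replicate 1, 4 higher and 1 lower of 32 without PO replicate 2, and 5 higher and 1 lower of 33 without TO replicate 1. All loci gave 1324 higher and 1688 lower, 836 and 894, and 856 and 977 without these libraries in turn.

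Among cell type markers, those of guard cells were lower in PO without reaching p under 0.05 at most members. The 5 guard cell markers were all lower in PO and summed to 63.5 to 194 CPM in PO, against 121 to 184 CPM in TO and 127 to 261 CPM in DMSO. One of the 5, the potassium channel gene KAT1 (AT5G46240), had an unadjusted p under 0.05 (logFC -0.78). The number at that p was 5 without PO replicate 1, 2 without TO replicate 4, and 0 without any one of the other 6 libraries. The 3 phloem markers summed to 85.7 to 190 CPM in PO, against 123 to 187 CPM in TO, with SUC2 (AT1G22710), the sucrose transporter of companion cells, at a logFC of -0.35. The 3 trichome markers summed to 78.9 to 98.7 CPM in PO, against 87.0 to 99.8 CPM in TO. No phloem or trichome marker had p under 0.05 (1 of the 3 phloem markers without PO replicate 1), and all 3 trichome markers were lower in PO (median -0.06), but all 3 were higher without PO replicate 4 (median 0.02). Of the 8 leaf mesophyll markers, 5 were higher in PO, with a median of 0.12. PO replicate 3 was lowest and PO replicate 1 highest of all 8 libraries in both the guard cell and the phloem sums. In whole shoots, fewer cells of a type and less RNA per cell cannot be told apart, and the part of cell type shares in the myrosinase, SAUR and light-harvesting values was not tested. Of 13 light-harvesting genes, 11 were lower in PO, 5 of them at p under 0.05 (38.5%, against 4.56% of all loci). Among these 5 were LHCB2.1 (AT2G05100), LHCB2.2 and LHCB2.3 (logFC -0.69, -0.70 and -0.96). Of their 50-base stretches, 23.5% in LHCB2.1 and 29.5% in LHCB2.2 occur elsewhere, and LHCB2.3 shares 595 bases with an antisense locus. TO replicate 2 was the highest library at all 3, and without it, or without PO replicate 2 or 3, 1 of the 13 had p under 0.05. Without TO replicate 3 it was 2, and without PO replicate 4 or TO replicate 1 it was 3. CAB1 (AT1G29930) had an interval within 1.5-fold (-0.34 to 0.23).

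**Figure D5:**
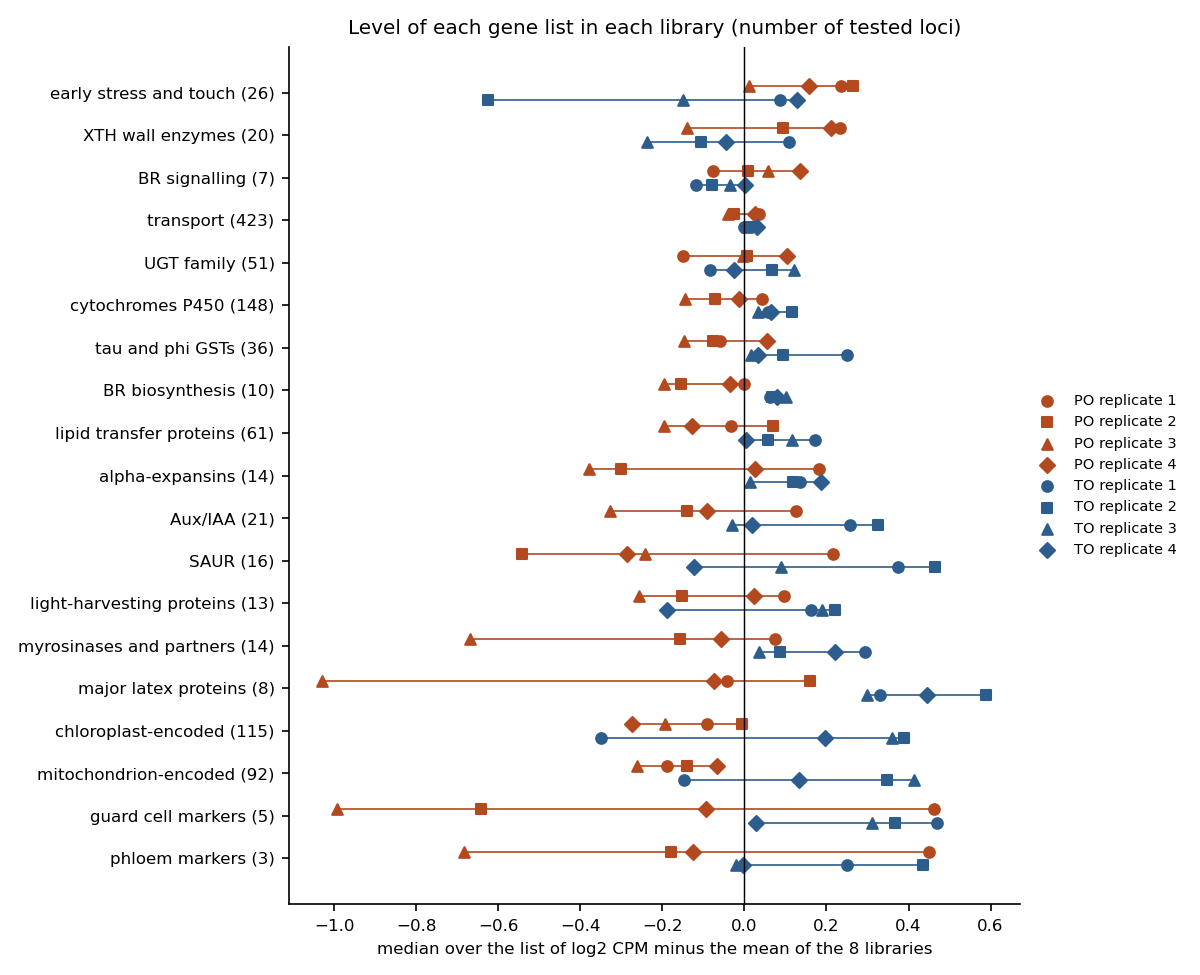
Median over each gene list of the log2 CPM minus the mean of the 8 libraries, for each PO and TO library, with the number of tested loci in parentheses. Major latex protein and BR biosynthesis genes were the lists shown in which the PO and TO libraries did not overlap, and TO replicate 2 was the lowest library in the early stress and touch list.

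For most genes of BR biosynthesis and signalling a 2-fold difference lay outside the interval. Of 10 biosynthesis genes, 8 were lower in PO, with a median of -0.15, and 8 intervals lay within 2-fold. At an unadjusted p under 0.05, 3 (30%, against 4.56% of all loci) were lower. Without PO replicate 3, 1 had p under 0.05. BR6OX2 (AT3G30180), the last oxidase on the way to brassinolide, had 54.0, 29.4, 27.0 and 45.6 CPM in PO, against 56.1, 65.6, 59.2 and 52.0 CPM in TO and 40.97 ± 14.4 CPM in DMSO (logFC -0.58, interval -1.02 to -0.14). CPD (AT5G05690) had 287, 237, 221 and 282 CPM in PO, against 259, 369, 332 and 310 CPM in TO (logFC -0.31), and CYP90D1 (AT3G13730) had a logFC of -0.35. DWF4 (AT3G50660), often called the flux-controlling hydroxylase, had a logFC of 0.17 (interval -0.19 to 0.53) and DET2 (AT2G38050), a steroid reductase, -0.02 (interval -0.20 to 0.17).

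Of 4 tested BR inactivation genes, 2 were higher and 2 lower in PO, with a median of 0.03 and all 4 intervals within 2-fold. At an unadjusted p under 0.05, 1 (25%, against 4.56% of all loci) was lower and 0 were higher. This was BAS1 (AT2G26710), which inactivates BRs. It had 15.9, 10.6, 9.63 and 12.6 CPM in PO, against 17.2, 21.1, 15.9 and 14.5 CPM in TO (logFC -0.50). All 7 tested signalling genes had a positive logFC, from 0.02 to 0.21, with intervals within 2-fold. Without TO replicate 1, 5 of the 7 were higher in PO, and without PO replicate 1 or PO replicate 4 it was 6. BSK1 (AT4G35230), a kinase that BRI1 phosphorylates, had a logFC of 0.21 (interval 0.01 to 0.40), and the receptor gene BRI1 had 0.02 (interval -0.22 to 0.25).

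Of 16 tested genes for progestogen enzymes and steroid-binding proteins, 14 had an unadjusted p above 0.05 and 13 had an interval within 2-fold. MSBP1 (AT5G52240), a membrane protein that binds progesterone in vitro, had 99.7, 113, 107 and 110 CPM in PO, against 107, 107, 110 and 103 CPM in TO (logFC 0.01, interval -0.15 to 0.16). VEP1 (AT4G24220), a progesterone reductase, had a logFC of 0.15 (interval -0.11 to 0.41), and AT2G33630, a steroid dehydrogenase-like gene, 0.05 (interval -0.14 to 0.24). The 2 genes at p under 0.05 were lower in PO. HHP3 (AT2G24150), of the family that includes membrane progestin receptors in animals, had 24.1, 19.5, 19.6 and 19.2 CPM in PO, against 21.5, 32.4, 25.7 and 24.3 CPM in TO and 23.1 ± 2.16 CPM in DMSO (logFC -0.33, interval -0.62 to -0.05). CYP87A2 (AT1G12740), a relative of the foxglove enzyme that cleaves the sterol side chain, had 0.203, 0.190, 0 and 0.0925 CPM in PO, against 0.273, 0.601, 0.730 and 0.545 CPM in TO, with a wide interval (-3.58 to -0.67).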

How the data were processed

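RNA from 12 *A. thaliana* shoot samples was sequenced after mRNA enrichment with oligo(dT) beads and NEBNext Ultra II library preparation. The 8 PO and TO libraries were compared. The authors deposited raw read counts per gene of all libraries. Per the paper and the labels, reads were demultiplexed with bcl2fastq 2.20, checked with FastQC 0.11.9, trimmed with fastp 0.23.2, aligned to TAIR10.1 (TAIR10 in the labels) with HISAT2 2.2.1 and SAMtools 1.11, and counted with featureCounts 2.0.1. How strand, overlapping genes and read pairs were counted is not given in the sources used here. In the libraries, 67.8 to 72.3% of counts from 1 to 20 were even, and whether read ends were counted singly is among these settings. All count columns were mapped to samples by their labels (0 columns without a sample).

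Counts were tested in R 4.3.3 with edgeR 4.0.16 (TMM, filterByExpr with a minimum count of 10, glmQLFit and glmQLFTest, PO against TO, no covariates, Benjamini-Hochberg adjustment). Intervals were logFC ± the 95% t quantile times |logFC|/√F with 10.7 degrees of freedom, and equivalence was tested with 2 one-sided tests per locus. Shares of counts were compared with exact permutation tests over samples (Python 3.11.15, scipy 1.17.1). Scripts were tested on simulated data. Alternatives were DESeq2 1.42.0, RLE or upper-quartile factors, no filter, a minimum count of 50, all 12 libraries, a replicate block, robust estimation, loci without exon overlap, counts halved (chosen after seeing the data) and each library left out.

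The members and gene lists were chosen with earlier results of these data known. The named loci were the 15 with the smallest p in each direction, loci called by either tool, in each list the 2 members with the smallest p in each direction and the member with the highest level, the 5 narrowest, 5 widest and 5 smallest-p loci of the study's table, markers, and 12 loci named in an earlier account. Loci outside this rule, chosen after their values were seen, were atpE, nad7, rrn23S, SAUR19, SAUR22, SAUR23, SAUR24, IAA19, XTH15, MBP1, NSP3, BGLU18, PYK10, CML38, ERF104, ACS6, WRKY18, BIP1, CPD, DET2, MSBP1, AT2G33630, UGT73B2, AER and UGT75B1. The study's own fold changes were not used. Promoter sequence is from RefSeq (TAIR10.1).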

Additional observations from a re-analysis of the deposited data

Results flagged for a closer look

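In 17 of 352 groups of 4 libraries, the highest or lowest library stood apart from the other 3 by more than Dixon's 95% limit of 0.829 of the group's range. Chance alone flags about 1 in 20 such groups. PO replicate 1 stood apart at EXPA6 (42.73 CPM, others 25.45 to 28.05), BSK1 (86.95 CPM, others 106.6 to 109.2), AT2G33630 (38.73 CPM, others 44.89 to 45.9) and HHP3 (24.13 CPM, others 19.22 to 19.59). PO replicate 2 was high at CML38 (18.54 CPM, others 7.139 to 9.035). PO replicate 3 was high at AT1G35660 (33.25 CPM, others 28.34 to 28.98) and ABCC2 (48.7 CPM, others 39.84 to 40.68), and PO replicate 4 at AT1G45688 (148.2 CPM, others 127.4 to 129.6).

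Among TO libraries, replicate 1 stood apart at the mitochondrial rps3 (4.091 CPM, others 6.451 to 6.778) and at VSP1 (3.039 CPM, others 1.683 to 1.8). TO replicate 2 stood apart at SLAH2 (3.005 CPM, others 4.426 to 4.578), CBP60G (7.253 CPM, others 15.3 to 16.91) and DREB1A (0.7413 CPM, others 0.2727 to 0.3506). TO replicate 3 was low at AT3G15720 (2.067 CPM, others 2.454 to 2.513), and TO replicate 4 was high at TPS04 (3.739 CPM, others 0 to 0.3506). Over gene lists, TO replicate 4 was low for light-harvesting proteins (median -0.1894 on the log2 scale against the mean of the 8 libraries, others 0.1619 to 0.2206) and TO replicate 1 was high for cytosolic ribosomal proteins (0.04694, others 0.004194 to 0.008865).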

How the results depend on the processing

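With edgeR, 0 loci were called under every alternative, while DESeq2 called 55 and had 988 loci higher and 1101 lower in PO at an unadjusted p under 0.05. DESeq2 was not run with libraries left out. With 1 library left out, the loci at an unadjusted p under 0.05 numbered 547 to 1324 higher and 591 to 1688 lower in PO, against 868 and 1036 with all 8. Restricted to loci without exon overlap, which are fewer, they numbered 542 higher and 644 lower, and 12249 loci were equivalent within 2-fold. Upper-quartile factors gave 662 higher and 1236 lower, so that 34.9% of these loci were higher in PO instead of 45.6%, and moved the median logFC of all loci to -0.03. The share of intervals within 2-fold was 62.8% without a filter, 93.9% at a minimum count of 50 and 80.5 to 82.7% with 1 library left out. The chloroplast share difference was -0.698 to -0.418 percentage points with 1 library left out. Low loci carry most of the imprecision. A floor of 3 counts was chosen as a setting, which is 0.0473 to 0.0731 CPM per library.

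With the replicate block, 0 loci were called, and 1043 were higher and 1091 lower in PO at an unadjusted p under 0.05. Deviations of PO and TO libraries with the same number correlated at -0.09 to 0.12, so the numbers were not taken to pair the samples.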
